A study of Mus musculus with 13 samples.

Results

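The 34 genes described here are transcriptional targets of TGF-beta signalling, taken as a list of gene symbols and matched to the deposited count table, which holds 48709 Ensembl genes. All 34 were found and all 34 were among the 16328 genes tested. Expression was measured by bulk RNA-seq of the enamel organ, the dental epithelium that forms tooth enamel, micro-dissected out of the mandibular incisors at postnatal day 11. The Het group was 5 mice with the genotype Tgfbr2-G357W/+, heterozygous for a substitution in the type II TGF-beta receptor, and the WT group was 8 Tgfbr2-+/+ littermates. No other allele or agent is named for either group, and each Het mouse keeps a wild-type copy of the receptor gene. The comparison addresses how the substitution, which models a form of the connective tissue disorder Loeys-Dietz syndrome, bears on expression in this tissue. Each library was taken as 1 mouse, so the spread between libraries includes both animal and dissection.

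TGF-beta ligands bind the type II receptor, which recruits and phosphorylates the type I receptor, and this in turn phosphorylates SMAD2 and SMAD3. These join SMAD4, enter the nucleus and switch on genes that include their own inhibitors, transcription factors of epithelial-mesenchymal transition (EMT), matrix proteins, cell cycle inhibitors and parts of the contractile cytoskeleton. Many of these genes also answer to other signals, and in teeth the pathway is known for its part in ameloblast differentiation and enamel mineralisation.

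Libraries held 20266079 to 26122340 counts in Het and 18852382 to 26508410 in WT. The labelled dental epithelium was checked against markers: in every library Ambn, an enamel matrix protein of secretory ameloblasts, was at 124685 to 250976 CPM (library-size-scaled counts with trimmed-mean, TMM, factors) and Krt14, an epithelial keratin, at 589 to 1013. Markers of other cells were present as well, with Col1a1, a collagen of mesenchymal cells, at 1515 to 6314 CPM, Myh11 of smooth muscle at 6.51 to 20.6 and Pecam1 of endothelium at 14.2 to 26.0. Lists of 13 kinds of markers were examined, 0 of their genes were called between genotypes, and the summed CPM of each list overlapped between Het and WT. In such bulk tissue fewer cells of a type and less RNA per cell cannot be told apart. The library names carry a number before a hyphen, 1, 4 or 5, called the library prefix here. Its meaning is not stated in the labels or tables. Prefix 1 held 1 Het and 3 WT libraries, prefix 4 held 2 and 3, and prefix 5 held 2 and 2.

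Promoter sequence was available from RefSeq (GRCm38.p6) for 22 of the 34 genes. 3 upstream stretches are shown because they belong to members on which the results below turn. Snai1 was among the 5 genes with the smallest p between genotypes, and Tgfbi and Ski were the 2 members that varied most clearly between library prefixes. Each is written 5′ to 3′ on the gene's own strand and ends at the gene's annotated start. Capitals mark the letters GGCGCC, a GC-rich SMAD-binding element.
Snai1: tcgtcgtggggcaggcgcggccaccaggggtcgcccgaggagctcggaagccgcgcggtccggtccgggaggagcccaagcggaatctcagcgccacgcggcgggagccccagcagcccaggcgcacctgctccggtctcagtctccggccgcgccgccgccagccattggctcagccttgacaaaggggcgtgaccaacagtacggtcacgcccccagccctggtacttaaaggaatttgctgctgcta
Tgfbi: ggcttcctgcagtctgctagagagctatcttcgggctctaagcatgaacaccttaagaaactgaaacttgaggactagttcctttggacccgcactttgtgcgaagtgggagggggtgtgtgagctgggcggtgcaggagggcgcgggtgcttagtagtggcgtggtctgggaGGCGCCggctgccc
Ski: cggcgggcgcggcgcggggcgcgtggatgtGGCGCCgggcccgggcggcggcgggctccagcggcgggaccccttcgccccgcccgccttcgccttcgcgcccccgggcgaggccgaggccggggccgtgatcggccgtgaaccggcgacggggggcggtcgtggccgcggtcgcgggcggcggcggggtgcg
The Snai1 stretch is chr2:167537945-167538194 on the plus strand, the Tgfbi stretch chr13:56609336-56609522 on the plus strand, and the Ski stretch chr4:155222593-155222785 on the minus strand. In the 250 bases upstream of the RefSeq start, searched on both strands, GGCGCC was found in 3 of 22 members (Ccn1, Ski and Tgfbi), which is 13.6%, against 10.8% of all genes with a window. CAGACA, the CAGA box bound by SMAD3 and SMAD4, was found in 4 (Acta2, Cdkn1a, Tgif1 and Twist1), which is 18.2% against 19.3%. The AP-1 site TGANTCA was found in 2 (Plaur and Zeb2), which is 9.09% against 7.82%. The palindrome GTCTAGAC was in 0 members and 0.200% of all genes, and AGCCAGACA, a longer CAGA box that contains CAGACA, in 0 members and 0.340% of all genes. The shares in the members were near those in all genes, and none of these letters was found in the Snai1 window.

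In WT, the targets spanned a wide range of levels, and a cell cycle inhibitor and 2 feedback inhibitors of the pathway led them. Levels of different genes are given as CPM per kilobase of merged exons, the median over the 8 WT libraries. Cdkn1a, the cyclin-dependent kinase inhibitor p21, was highest at 183, with libraries from 133.8 to 216.6, above 99.3% of the genes with a level. Pmepa1, a membrane protein that binds receptor-activated SMADs and limits signalling, followed at 101, Skil, the SMAD corepressor SnoN, at 96.6, and Tpm1, an actin-binding tropomyosin, at 96.4. The ranges of Pmepa1, Skil and Tpm1 overlapped. The range of Cdkn1a lay above those of Pmepa1 and Tpm1 and overlapped that of Skil, whose highest library, WT 4-3, reached 155.6. In that same library Cdkn1a was at 216.6. Acta2, smooth muscle actin, at 43.0, and Timp1, a metalloproteinase inhibitor, at 21.6, completed the 6 members at or above the 90th percentile of all genes.

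At the other end, Tgif2, a homeodomain corepressor, was at 0.223 and Edn1, the vasoconstrictor peptide endothelin, at 0.194, while the median over 16289 genes was 2.36. The ratio of the highest to the lowest member was 944. Targets known from mesenchymal cells were spread widely: Postn, a matrix protein, was at 15.9, Vim, an intermediate filament, at 14.9, Fn1, fibronectin, at 3.91, Ccn2, a matricellular growth factor, at 3.70, and Zeb1, an EMT repressor of epithelial genes, at 0.846. In this order only 4 of 33 neighbouring pairs had WT ranges that did not overlap: Cdkn1a above Pmepa1, Tpm1 above Acta2, Acta2 above Timp1 and Zeb1 above Tgif2. 9 members lay below the median of all genes.

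**Figure D1:**
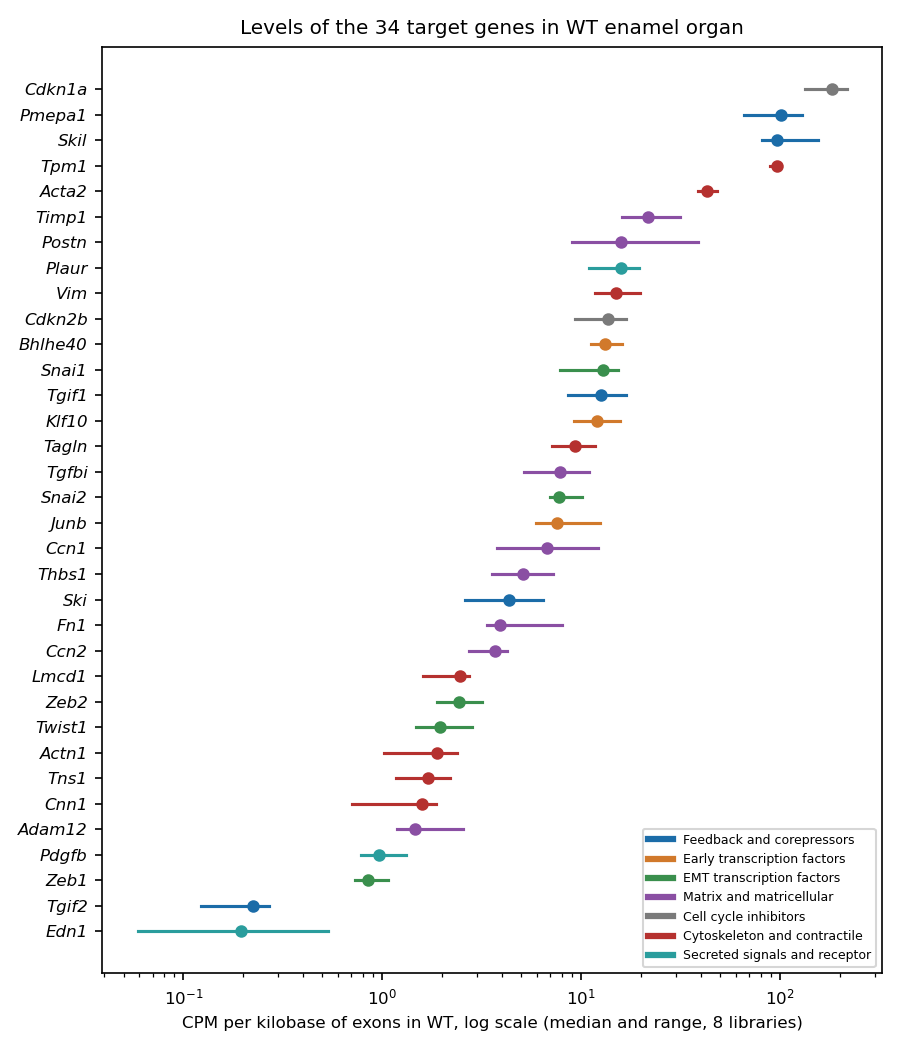
Level of each of the 34 genes in WT as CPM per kilobase of exons on a log axis, points the median and lines the range over 8 libraries, coloured by role. Cdkn1a stands at the top at 183, Tgif2 and Edn1 at the bottom at 0.223 and 0.194, and most neighbours overlap.

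Between genotypes, no target gene passed the threshold. At an adjusted p under 0.05 (edgeR quasi-likelihood F test, Benjamini-Hochberg over all genes), 0 of 34 members were called, against 14 of 16328 genes, 0.0857%. The smallest adjusted p of a member was 0.514, for Pmepa1, and with DESeq2, limma-voom and every other fit run the count was also 0. At an unadjusted p under 0.05, 5 members were lower in Het (Pmepa1, Snai1, Skil, Pdgfb and Adam12), which is 14.7% of the list against 4.18% of all genes. Higher in Het were 0 members against 2.72% of all genes, and both directions together gave 5 members against 6.90%.

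Log2 fold changes (Het minus WT) were negative for 24 of 34 members, which is 70.6%, against 50.9% of all genes. Their median was -0.08, against -0.0044 over all genes tested. Markers of maturation-stage ameloblasts, led by the enamel protease Klk4, were negative for 5 of 5 genes, with a median of -0.29 and 0 past the threshold. Osteoblast (4 of 4), odontoblast (3 of 3) and skeletal muscle markers (7 of 7 tested) were also all negative, with medians of -0.19, -0.30 and -0.51. Each other marker list held both signs. The summed CPM of the maturation markers, nearly all from Odam, was 26805 to 51799 in Het (median 35301) and 39674 to 55092 in WT (median 43840). In Het, 4 of 5 libraries were below every WT library in this sum, and its part in the members' values was not tested. The Het and WT ranges were apart for 0 of 34 members, against 0.490% of all genes. The 95% interval of the difference lay within 1.5-fold in both directions for 20 members, 58.8% of the list, against 58.7% of all genes, so for these larger differences fall outside the interval.

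**Figure D2:**
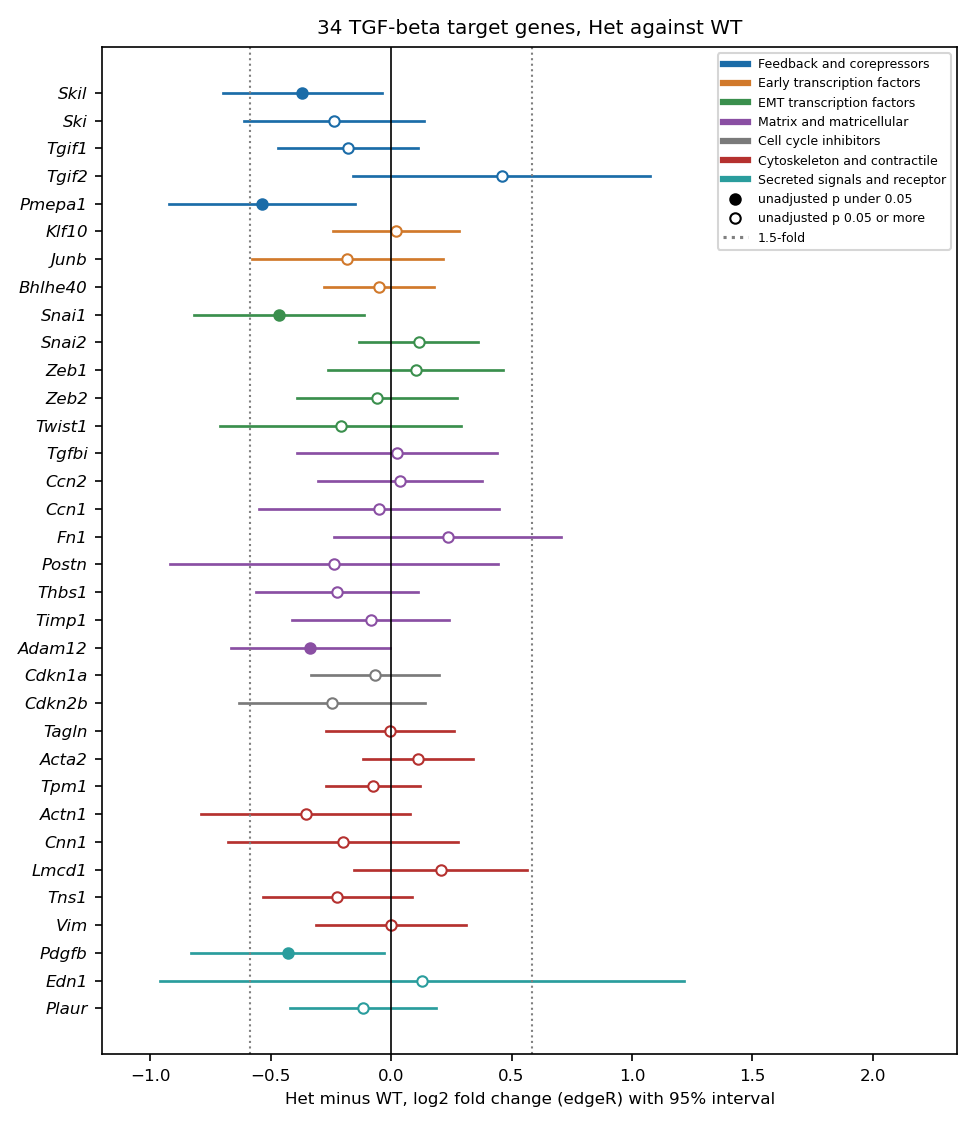
Het minus WT log2 fold change of each of the 34 genes from the edgeR fit with its 95% interval, coloured by role, with dotted lines at 1.5-fold in both directions. The filled points are the 5 genes with an unadjusted p under 0.05, all negative, and the intervals of 20 genes lie between the dotted lines.

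Among the 5 feedback inhibitors and corepressors, 4 had negative and 1 positive fold changes, with a median of -0.24, and Pmepa1 and Skil had unadjusted p under 0.05. Pmepa1 (ENSMUSG00000038400, chromosome 2, 173224458 to 173276533, GRCm38) was at 312 CPM in Het 1-2, 346 in Het 4-2, 480 in Het 4-5, 236 in Het 5-5 and 360 in Het 5-6, and in WT the lowest, median and highest libraries were 323, 499 and 635. Both WT libraries of prefix 5, at 323 and 340, fell within the Het range, as did WT 1-4, at 475. The 6 WT libraries outside prefix 5, from 475 upwards, lay above 4 of the 5 Het libraries. Its log2 fold change was -0.54 ± 0.19 (SE), with a 95% interval from -0.92 to -0.15 (edgeR unadjusted p = 0.00904, adjusted p = 0.514). Within prefixes 1, 4 and 5 the difference in mean log2 CPM was -0.76, -0.52 and -0.19.

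Skil (ENSMUSG00000027660, chromosome 3, 31095058 to 31122577) encodes SnoN, which represses SMAD targets and is itself induced by TGF-beta. It was at 600 CPM in Het 1-2, 768 in Het 4-2, 706 in Het 4-5, 752 in Het 5-5 and 957 in Het 5-6, and in WT at a lowest of 788, a median of 936 and a highest of 1508. In Het, 4 of 5 libraries were below all WT libraries, and Het 5-6 was above the WT median. The log2 fold change was -0.37 ± 0.16 (SE; edgeR unadjusted p = 0.0300, adjusted p = 0.675), and within prefixes 1, 4 and 5 the difference was -0.52, -0.64 and -0.01. Without the highest library, WT 4-3, it was -0.25 (edgeR unadjusted p = 0.0539), and without the libraries of prefix 4 it was -0.15.

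The other 3 members of this group had larger p. Ski, the close relative of SnoN, was at 16.1 to 26.5 CPM in Het and 14.4 to 35.7 in WT, a log2 fold change of -0.24 ± 0.18 (SE). Tgif1, a homeodomain corepressor, was at 53.1 to 75.8 against 48.2 to 94.1 CPM (-0.18 ± 0.14). Its paralog Tgif2 was barely measured, at 0.743 CPM in Het 1-2, 1.01 in Het 4-2, 1.52 in Het 4-5, 0.780 in Het 5-5 and 1.54 in Het 5-6, with a WT lowest of 0.471, median of 0.854 and highest of 1.03. Het 4-5 and Het 5-6 were above all WT libraries and the other 3 lay within the WT range. The Tgif2 interval, from -0.16 to 1.08 on the log2 scale, allows more than a 1.5-fold difference.

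**Figure D3:**
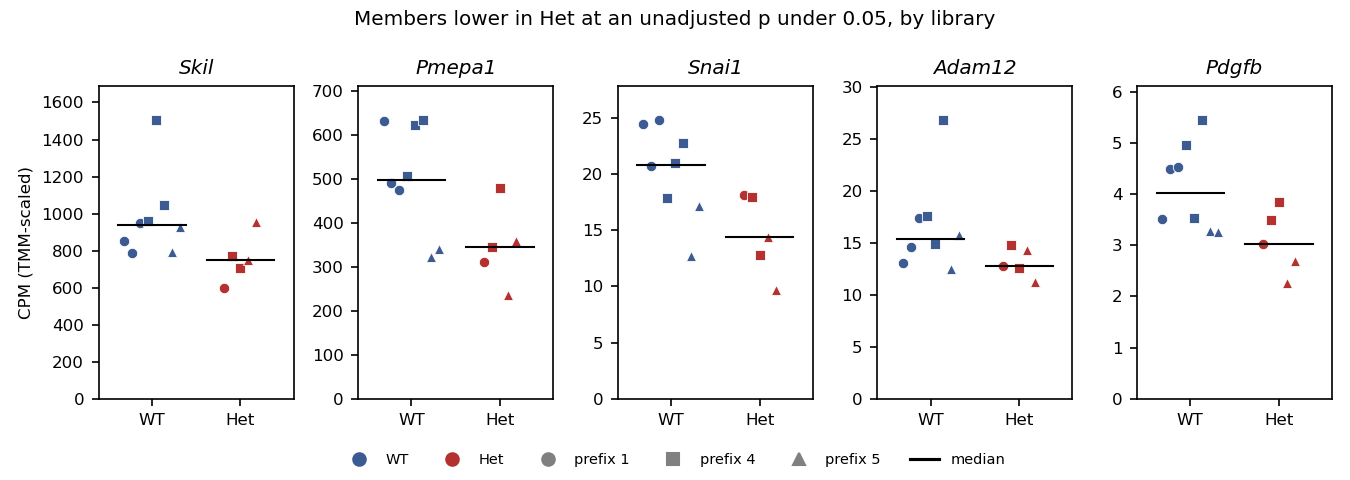
TMM-scaled CPM of Skil, Pmepa1, Snai1, Adam12 and Pdgfb in each library, WT blue and Het red, marker shape the library prefix and lines the group median, each panel starting at 0. Het medians are lower in all 5 panels (for Pmepa1 346 against 499), and the groups overlap in each.

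Of the 3 early transcription factors, 2 had negative and 1 a positive fold change. Bhlhe40, a basic helix-loop-helix repressor, was at 54.1 to 70.6 CPM in Het and 53.0 to 76.0 in WT (log2 fold change -0.05 ± 0.11, SE), and Klf10, a zinc-finger factor induced early by TGF-beta, at 41.0 to 58.0 and 38.7 to 65.7 (0.02 ± 0.13). Their 95% intervals ran from -0.28 to 0.18 and from -0.24 to 0.28. Junb, a subunit of AP-1, was at 11.7 to 20.7 CPM in Het and 13.7 to 28.8 in WT (-0.18 ± 0.19), with a wider interval, from -0.58 to 0.21, and differences of 0.12, -0.31 and -0.03 within prefixes 1, 4 and 5. The summed CPM of Fos and 6 other immediate-early genes that respond to tissue handling was 31.6 to 50.02 in Het and 31.2 to 47.8 in WT. That sum was lowest in prefix 5, at 31.2 to 37.4, against 41.2 to 47.1 in prefix 1 and 42.0 to 50.02 in prefix 4. Of the 6 immediate-early genes tested, 1 had an adjusted p under 0.05 for prefix (edgeR), against 6.08% of all genes. The part of this sum in the members' values was not tested.

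Of the 5 EMT transcription factors, 3 had negative and 2 positive fold changes, and the paralogs Snai1 and Snai2 had differences of opposite sign. Snai1 (ENSMUSG00000042821, chromosome 2, 167538195 to 167542814), a zinc-finger repressor of E-cadherin whose upstream sequence is shown above, was at 18.1 CPM in Het 1-2, 18.0 in Het 4-2, 12.8 in Het 4-5, 14.4 in Het 5-5 and 9.72 in Het 5-6, and in WT at a lowest of 12.7, a median of 20.8 and a highest of 24.9. All 5 Het libraries were below the WT median, and 4 lay within the WT range. The log2 fold change was -0.47 ± 0.17 (SE), with a 95% interval from -0.82 to -0.11 (edgeR unadjusted p = 0.0121, adjusted p = 0.566). The difference was of similar size within prefixes 1, 4 and 5, at -0.36, -0.43 and -0.32.

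Snai2, which encodes Slug, was at 15.4 to 20.1 CPM in Het and 14.0 to 20.3 in WT, a log2 fold change of 0.11 ± 0.12 (SE) with an interval from -0.13 to 0.36. The difference between the fold changes of Snai1 and Snai2 was not tested. Zeb1 and Zeb2, zinc-finger homeobox repressors, gave 0.10 ± 0.17 and -0.06 ± 0.16, and Twist1, a basic helix-loop-helix factor of mesenchyme, -0.21 ± 0.24 at 1.49 to 4.05 CPM in Het and 2.40 to 4.60 in WT. For Zeb2 and Twist1 the lowest library of all 13 was Het 5-6, at 27.4 and 1.49 CPM.

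The 8 matrix and matricellular genes were mixed, 5 with negative and 3 with positive fold changes and a median of -0.07. Adam12 (ENSMUSG00000054555, chromosome 7, 133883199 to 134232146), a membrane-bound metalloproteinase, was at 12.8 CPM in Het 1-2, 14.8 in Het 4-2, 12.6 in Het 4-5, 14.3 in Het 5-5 and 11.3 in Het 5-6, and in WT at a lowest of 12.5, a median of 15.4 and a highest of 26.9. All Het libraries were below the WT median, and only Het 5-6 was below every WT library. The log2 fold change was -0.34 ± 0.16 (SE; edgeR unadjusted p = 0.0474, adjusted p = 0.719). Within prefixes 1, 4 and 5 it was -0.22, -0.49 and -0.14, and without the highest library, WT 4-4, it was -0.20 (edgeR unadjusted p = 0.109).

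Single libraries moved the fold changes of Postn, Fn1 and Ccn1. Postn, a matricellular protein of periodontal and other connective tissue, was at 99.9, 179, 118, 199 and 63.0 CPM in Het 1-2, 4-2, 4-5, 5-5 and 5-6, with a WT lowest of 78.2, median of 139 and highest of 336. The highest value belonged to WT 4-4 and the lowest to Het 5-6, and the groups overlapped. Its log2 fold change was -0.24 ± 0.32 (SE), and without WT 4-4 it was 0.03. Fn1 was 0.23 ± 0.22 (SE) in all libraries. It was 0.42 without WT 4-4 (edgeR unadjusted p = 0.0273, adjusted p = 0.735) and 0.05 without Het 4-2, its highest Het library.

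The remaining matrix genes gave no p under 0.05. Thbs1, thrombospondin, which can activate latent TGF-beta, was at 18.9 to 35.1 CPM in Het and 21.7 to 43.7 in WT (log2 fold change -0.23 ± 0.16, SE), and Timp1 at 14.5 to 24.6 and 14.2 to 27.9 (-0.09 ± 0.16). Tgfbi, a secreted matrix protein named for its induction by TGF-beta, was 0.02 ± 0.20 and Ccn2 0.04 ± 0.16. Ccn1, a matricellular relative of Ccn2, was -0.05 ± 0.24, with Het 1-2 at 24.7 CPM and the other 4 Het libraries at 9.72 to 12.4. Left-out libraries moved it from -0.33 without Het 1-2 to 0.09 without WT 5-3. With all libraries, each of the last 3 intervals lay within 1.5-fold.

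The 2 cell cycle inhibitors, the cytostatic targets of the pathway, did not pass the threshold. Cdkn1a was at 537 to 726 CPM in Het and 475 to 770 in WT, a log2 fold change of -0.07 ± 0.13 (SE) with an interval from -0.34 to 0.20. Cdkn2b, the kinase inhibitor p15, was at 8.22 to 22.4 against 12.9 to 23.4 CPM (-0.25 ± 0.18), with its lowest value in Het 4-2. Its fold change was -0.08 without Het 4-2 and -0.40 without Het 5-6, and it was -0.01 without prefix 4 and -0.44 without prefix 5. At an unadjusted p (edgeR) it was under 0.05 in 2 of these fits, without Het 5-6 and without prefix 5.

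Of the 8 cytoskeletal and contractile genes, 6 had negative and 2 positive fold changes, with a median of -0.04 and none with a p under 0.05. Tpm1 was the steadiest, at 545 to 621 CPM in Het and 576 to 655 in WT, with a biological coefficient of variation (BCV) of 0.119 that 0.631% of all genes fall below. Its log2 fold change was -0.08 ± 0.09 (SE). Acta2 (0.11 ± 0.11) and Tagln (-0.01 ± 0.13), both of smooth muscle and myofibroblasts, and Vim (0.00 ± 0.15) had differences near 0. Actn1, an actin crosslinker, had the largest fold change of the 8, -0.36 ± 0.21, followed by Tns1, a focal adhesion protein, at -0.22 ± 0.15, Lmcd1, a LIM-domain protein, at 0.21 ± 0.17, and Cnn1, calponin, at -0.20 ± 0.23.

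Of the 3 secreted signals and receptors, Pdgfb (ENSMUSG00000000489, chromosome 15, 79995874 to 80014977), a chain of platelet-derived growth factor, had an unadjusted p under 0.05. It was at 3.02 CPM in Het 1-2, 3.50 in Het 4-2, 3.84 in Het 4-5, 2.26 in Het 5-5 and 2.68 in Het 5-6, and in WT at a lowest of 3.25, a median of 4.01 and a highest of 5.46. 3 of 5 Het libraries were below every WT library and 2 lay within the WT range. The log2 fold change was -0.43 ± 0.19 (SE; edgeR unadjusted p = 0.0363, adjusted p = 0.699), and within prefixes 1, 4 and 5 it was -0.45, -0.31 and -0.39. Pecam1 and the other 5 endothelial markers summed to 62.6 to 89.2 CPM in Het (median 83.8) and 64.6 to 86.7 in WT (median 71.5). Of these 6 markers 1 had a negative fold change, and their part in the Pdgfb values was not tested.

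Plaur, the urokinase receptor, was at 29.7 to 51.3 CPM in Het and 28.7 to 50.9 in WT (log2 fold change -0.12 ± 0.14, SE). Edn1 was at 0.743 CPM in Het 1-2, 0.801 in Het 4-2, 0.247 in Het 4-5, 1.11 in Het 5-5 and 0.132 in Het 5-6, with a WT lowest of 0.126, median of 0.415 and highest of 1.14. Both groups spread from the lowest to near the highest value. It had 3 to 27 counts per library and a BCV of 0.575, and the interval of its fold change, -0.96 to 1.22, extends past 1.5-fold in both directions.

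The genotype difference was compared within each prefix for all members. It was negative in all 3 prefixes for 13 of 34 members, the 5 above with Tgif1, Twist1, Postn, Thbs1, Tpm1, Actn1, Tns1 and Plaur, and positive in all 3 for 1, Fn1. Over all genes tested the shares were 18.1% and 18.2%. The remaining 20 members had mixed signs. Prefix 1 holds a single Het library. Without prefix 1 no member had an unadjusted p under 0.05, against 4.53% of all genes. The fold changes of the 5 above stayed at -0.39 to -0.45.

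Target genes also differed between library prefixes, in 4 cases past the threshold. In a fit with genotype and prefix as terms, Tgfbi, Ski, Fn1 and Actn1 had an adjusted p under 0.05 for prefix (edgeR), which is 11.8% of members against 6.08% of all genes (992). All 4 were highest in prefix 4 and lowest in prefix 5, an order (4 above 1 above 5) that 52.7% of those 992 genes shared. Pmepa1 and Snai1 had prefix p just above the threshold (edgeR adjusted p = 0.0540 and 0.0544).

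Tgfbi (ENSMUSG00000035493, chromosome 13, 56609523 to 56639562) was at 26.7 CPM in Het 1-2 and at 22.6, 31.7 and 27.4 in WT 1-1, 1-3 and 1-4. In prefix 4 it was at 36.3 and 43.6 in Het and at 36.1, 37.7 and 41.4 in WT, and in prefix 5 at 20.03 and 24.4 in Het and at 21.5 and 19.4 in WT. Every library of prefix 4, of either genotype, lay above every other library. Relative to prefix 1 the log2 difference was 0.52 for prefix 4 and -0.36 for prefix 5 (edgeR adjusted p = 0.00229).

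Ski (ENSMUSG00000029050, chromosome 4, 155154075 to 155222592) was at 19.6 CPM in Het 1-2 and 25.7, 22.9 and 22.5 in the WT libraries of prefix 1, at 22.5 and 26.5 in Het and 29.0, 25.1 and 35.7 in WT of prefix 4, and at 16.1 and 17.2 in Het and 14.4 and 17.3 in WT of prefix 5. Here the libraries of prefix 5 lay below all others, and prefixes 1 and 4 overlapped. Relative to prefix 1 the log2 difference was 0.32 for prefix 4 and -0.43 for prefix 5 (edgeR adjusted p = 0.00942).

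Fn1 (ENSMUSG00000026193, chromosome 1, 71585520 to 71653200) was at 49.999 CPM in Het 1-2 and 39.6, 53.2 and 44.96 in the WT libraries of prefix 1, at 88.9 and 78.9 in Het and 51.2, 46.4 and 93.9 in WT of prefix 4, and at 45.4 and 37.7 in Het and 39.4 and 40.8 in WT of prefix 5. WT 4-4, Het 4-2 and Het 4-5 were above all other libraries, and the other 2 of prefix 4 lay within the range of prefix 1 (edgeR adjusted p = 0.0178). Actn1 (ENSMUSG00000015143, chromosome 12, 80167547 to 80260371) was at 7.67 CPM in Het 1-2 and 9.97, 10.9 and 5.75 in the WT libraries of prefix 1, at 8.94 and 8.11 in Het and 12.1, 11.0 and 13.1 in WT of prefix 4, and at 6.69 and 5.45 in Het and 5.64 and 6.93 in WT of prefix 5. All libraries of prefix 4 were above all of prefix 5, with prefix 1 spread over both (edgeR adjusted p = 0.0490).

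The summed CPM of 8 markers of fibroblasts and mesenchyme was likewise highest in prefix 4 and lowest in prefix 5, at 6266 to 8680 in prefix 1, 6708 to 11829 in prefix 4 and 4417 to 6263 in prefix 5, with prefixes 1 and 4 overlapping. Of these 8 markers 3 passed the prefix threshold, against 6.08% of all genes, and all 8 had counts in every library. Between genotypes the sum was 4417 to 9826 in Het and 5389 to 11829 in WT. The summed CPM of 4 secretory ameloblast genes, mostly from Ambn, ran the other way. It was 191863 to 267103 in prefix 1, 145420 to 242129 in prefix 4 and 263871 to 288082 in prefix 5, with prefixes 4 and 5 apart. Of these 4 genes 0 passed the prefix threshold. The part of either sum in the members' prefix differences was not tested. Only Tgfbi and Ski passed the prefix threshold in every fit run. Fn1 did not without Het 4-2 or without WT 5-1, and Actn1 did not with limma-voom or with any of 10 libraries left out, WT 4-4 among them.

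**Figure D4:**
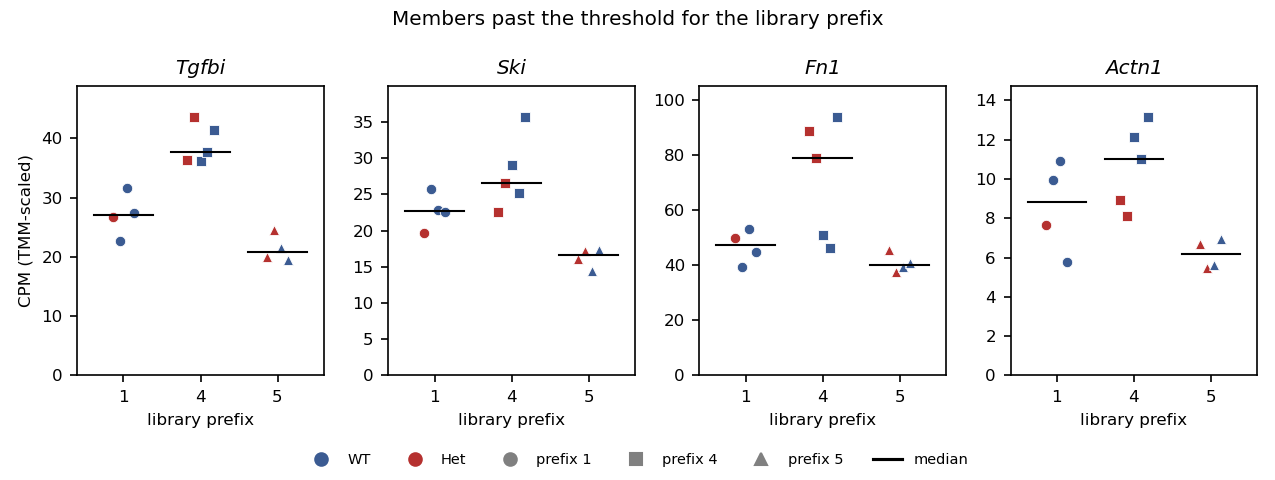
TMM-scaled CPM of Tgfbi, Ski, Fn1 and Actn1 by library prefix, WT blue and Het red, lines the prefix median, each panel starting at 0. Medians are highest in prefix 4 and lowest in prefix 5 in all 4 panels, for Tgfbi 37.7 and 20.8.

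A pair of libraries stood at the ends of many members' ranges, a point noticed after the values were seen. WT 4-4 was the highest of 13 libraries for 14 of 34 members, among them Postn, Fn1, Adam12, Thbs1, Twist1, Ski, Pmepa1, Pdgfb and Vim, while it was highest for 10.6% of all genes. Het 5-6 was the lowest for 11 members, among them Postn, Vim, Zeb2, Twist1, Acta2, Fn1 and Snai1, and lowest for 9.41% of all genes. WT 4-4 also had the highest fibroblast marker sum (11829 CPM) and the lowest sum of 4 secretory ameloblast genes (145420 CPM, against up to 288082 in WT), and Het 5-6 the lowest fibroblast sum (4417 CPM). Their part in the members' values was not tested. Without WT 4-4 the members with an unadjusted p under 0.05 were Pmepa1, Skil and Snai1, lower in Het, and Fn1, higher. Without Het 5-6 they were Pmepa1, Skil, Snai1 and Cdkn2b, all lower. Negative fold changes numbered 21 of 34 in each case, against 24 with all libraries.

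**Figure D5:**
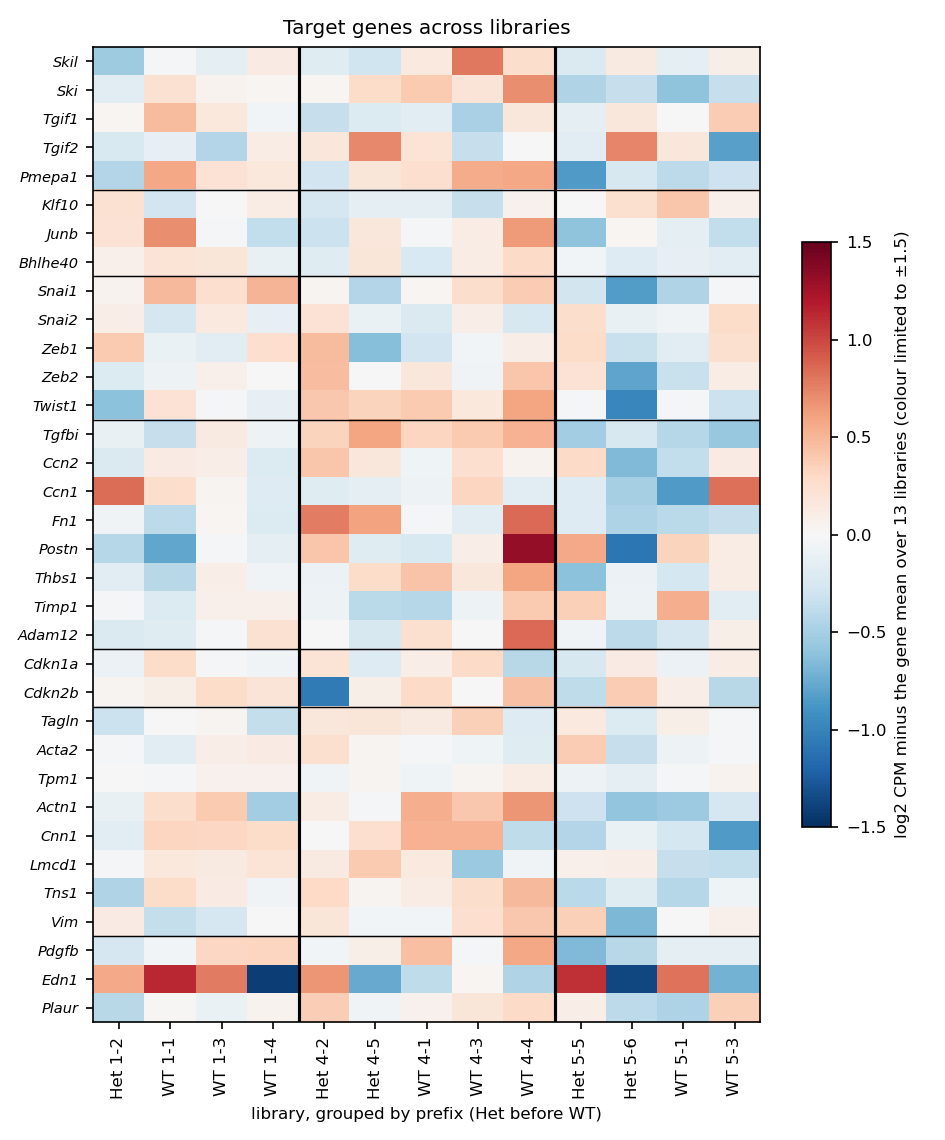
Log2 CPM of each gene minus its mean over 13 libraries (red higher, blue lower, colour limited to 1.5 in both directions), genes grouped by role and libraries by prefix with Het before WT. WT 4-4 has the highest value for 14 genes and Het 5-6 the lowest for 11, and no gene has all Het libraries on one side of all WT libraries.

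Across members the BCV had a median of 0.203, against 0.204 over all genes, so the targets were measured about as tightly as a typical gene. It ran from 0.119 for Tpm1 to 0.575 for Edn1, with Postn, at 0.384, next below Edn1. The libraries are not stranded, and 12 members share an exon with another annotated gene, Cdkn1a, Fn1 and Actn1 among them. Reads of the 2 genes may not be told apart there. For 4 members such a gene was also tested: Bhlhe40 with 0610040F04Rik, Tagln with Pcsk7, Junb with Prdx2, and Tgif2 with 5430405H02Rik and Gm37790.

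Upstream of the targets, 25 genes of the pathway (ligands, latency proteins, activating integrins, receptors, SMADs and their ligases) were all tested. Between genotypes 0 passed the edgeR threshold, against 0.0857% of all genes. Fold changes were negative for 16 and positive for 9, against 50.9% negative over all genes. Their median was -0.11, against -0.0044 over all genes. At an unadjusted p under 0.05 there was 1 of the 25, against 6.90% of all genes. This was Smad7, the inhibitory SMAD, itself a target of the pathway, at 45.9 to 71.4 CPM in Het and 54.7 to 110.7 in WT, a log2 fold change of -0.40 ± 0.16 (SE; edgeR unadjusted p = 0.0201, adjusted p = 0.635). Ltbp2, a latent TGF-beta binding protein, was at 2.14 to 5.65 CPM in Het and 2.23 to 7.80 in WT (-0.56 ± 0.27; edgeR adjusted p = 0.731). Tgfbr2, the mutated receptor, was at 62.9 to 86.9 and 52.0 to 76.5 CPM (0.22 ± 0.11; edgeR adjusted p = 0.741), and gene counts do not tell its alleles apart. All 3 overlapped between genotypes. For the library prefix, 5 of the 25 pathway genes passed the edgeR threshold, against 6.08% of all genes.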

How the data were processed

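RNA was measured in 13 libraries, 5 Het and 8 WT. Unstranded libraries were made from total RNA and read from 1 end, per the labels' protocols. STAR 2.5.2a, the build GRCm38 and, without a role, DESeq2, edgeR and limma are named in the submitters' processing notes. The tool and annotation for counting were not given in the sources used here. Raw counts of 48733 features were deposited by the authors. The 24 that are not Ensembl genes were left out of library sizes and of every test. A filtered count table by the authors served as an alternative filter, and their TMM-scaled CPM signal table, deposited beside it, was used for no test. Symbols came from the reference table (48349 of 48709 genes). Columns name genotypes and a number pair, so columns were mapped to groups only. Nothing beyond the series' design text says that libraries are separate mice, and otherwise p-values measure only the spread between libraries.

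Counts were filtered with filterByExpr (count minimum 10), scaled by TMM and tested with edgeR 4.0.16 in R 4.3.3 (robust glmQLFit and glmQLFTest). P-values were adjusted by Benjamini-Hochberg over 16328 genes, with a threshold of 0.05. SE and 95% intervals came from the F statistic. CPM are counts over TMM-scaled library sizes, and log2 CPM use a prior count of 2. Lengths and positions are from GENCODE M21. The procedure was tested on simulated data, which for Het against WT held no prefix differences. There it recovered 41.5% of 1.5-fold, 76.9% of 2-fold and 96.9% of 4-fold changes, so changes near 1.5-fold were often missed. Alternatives were other factors and filters, DESeq2 1.42.0, limma-voom (limma 3.58.1), the prefix as a term, each prefix left out and each library left out. The members and gene lists were chosen with earlier results of these data known. All 34 members could be named. Values by library (all Het, and the lowest, median and highest WT) are given for members with an unadjusted p under 0.05 and those under 1 CPM in the median library, and all 13 for the 4 of smallest prefix p. Of the pathway list, Tgfbr2 and the 3 of smallest p are named, and of the marker lists only the sum and first gene could be named. Odam was named after its values were seen. Other libraries' values shown, such as Postn, were chosen after they were seen.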

Additional observations from a re-analysis of the deposited data

Results flagged for a closer look

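In 4 of 68 groups (34 genes in 2 genotypes), the highest library stood apart from the others by more than Dixon's critical value at the 95% level, and chance marks about 1 in 20 groups. Adam12 was at 26.9 CPM in WT 4-4, and the next WT library was at 17.6. Fn1 was at 93.9 CPM in WT 4-4, and the next WT library was at 53.2. Both values come from the library with the highest fibroblast marker sum. Skil was at 1508 CPM in WT 4-3, against 1047 in the next WT library. Ccn1 was at 24.7 CPM in Het 1-2, against 12.4 in the next Het library, a level that WT 5-3 also reached at 24.5 CPM.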

How the results depend on the processing

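The counts of members and of pathway genes called between genotypes were 0 in every fit, and the lowest adjusted p of a member was 0.233 (Pmepa1, DESeq2). The genes called among all tested, 14 in the edgeR fit, numbered 27 with no filter, 25 with at least 1 CPM in 5 libraries, 74 with DESeq2, 25 with limma-voom and sample weights, 30 with the prefix as a term, 0, 1 and 2 without prefixes 1, 4 and 5, and 6 to 22 with 1 library left out. The 5 members with an unadjusted p under 0.05 became 0 without prefix 1 and 3 without prefix 4. They became 2 to 6 with 1 library left out, with 2 without Het 1-2 or Het 5-5 and 3 without Het 4-5 or WT 4-1. The share of all genes under that p, 6.90% in the main fit, was 4.53% without prefix 1 and 5.52% without prefix 4. That share was 9.82% with the prefix as a term and 8.72% with limma-voom and sample weights, with 5 members in each. With 1 library left out it was 5.07% to 9.06%. The 4 members past the prefix threshold became 9 with no filter and 9 with the DESeq2 likelihood ratio test, and 2 to 6 with 1 library left out. The share of all genes past it, 6.08% in the edgeR fit, was 5.93% with no filter and 13.1% with DESeq2. With 1 library left out that share was 1.73% to 9.04%. These counts used fewer genes or libraries in part, and otherwise the cause was not tested. Signs turned for 11 members, none of them with an unadjusted p under 0.05 in any fit. Vim gave 0.000453 with RLE factors, 0.00378 with no filter, 0.00196 with the authors' filter, 0.000470 with DESeq2, 0.0139 with sample weights, and 0.0985 and 0.0686 without prefixes 4 and 5. Tagln gave 0.000194 with no filter, 0.000158 with limma-voom, and 0.00867 and 0.0231 without prefixes 1 and 5. Tgfbi gave -0.00655 with sample weights, and -0.00360 and -0.0422 without prefixes 1 and 4. Ccn2 gave -0.0339 with sample weights and -0.106 without prefix 4. Ccn1 gave 0.102 with sample weights, and 0.0508 and 0.208 without prefixes 4 and 5. Klf10 gave -0.000513 with the prefix as a term and -0.0618 without prefix 1. Timp1 gave 0.0144 without prefix 4, and Zeb2 0.0167 without prefix 5. With 1 library left out the ranges were -0.0391 to 0.0899 for Klf10, -0.0112 to 0.25 for Zeb1, -0.21 to 0.0836 for Zeb2, -0.14 to 0.14 for Tgfbi, -0.0721 to 0.17 for Ccn2, -0.33 to 0.0942 for Ccn1, -0.43 to 0.0256 for Postn, -0.20 to 0.00389 for Timp1, -0.0519 to 0.0735 for Tagln, -0.093 to 0.13 for Vim and -0.20 to 0.38 for Edn1. No paired analysis was possible because the columns carry none of the replicate numbers in the labels. Edn1 and Tgif2 were under 1 CPM in the median library, and their intervals extend past 1.5-fold.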
